A study of Mus musculus with 8 samples.

Results

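Axon guidance genes were followed by RNA sequencing in endothelial cells that were sorted from the brains of mice at postnatal day 8. The members are all gene symbols of the semaphorin (classes 3 to 7), plexin, Eph, ephrin, Unc5, Robo, Slit and netrin families, matched by name. Efnb2, Ephb4 and Sema3g were left out, and the list was chosen with earlier results of these data known. This gave 64 members of 24394 symbols. One of them, Plxna4os1, is annotated as an antisense RNA at the Plxna4 locus and the other members are genes of the named families. The deletion group, YT-ECKO, comprised 4 libraries from mice that carried floxed Yap and Taz alleles and VE-cadherin-CreERT2, an inducible Cre driven by an endothelial promoter. The other group, WT, comprised 4 libraries from wild-type mice, and both groups are labelled C57BL/6J. The tissue is taken from the labels, since the series' design text spells it unclearly. Yap and Taz (gene symbols Yap1 and Wwtr1) are transcriptional co-activators downstream of Hippo signalling and bind DNA through TEAD factors. The labels do not give the inducing agent, its timing, whether WT mice received it, or whether each library came from its own mouse. Cre, floxed alleles and any such treatment coincide with the deletion and cannot be told apart from it, and p-values measure only the spread between these libraries.

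Guidance cues were first described in growing axons, and blood vessels use many of the same ligands and receptors. Semaphorins signal through plexins, some of them with neuropilins as co-receptors. Ephrins on one cell bind Eph receptors on its neighbour, netrins bind Unc5 receptors, Dcc and neogenin, and Slits bind Robo receptors. In endothelium, plexin-D1, Unc5b and Robo4 are the best known members, with roles in sprouting and in keeping vessels stable.

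Values are given as scaled reads, the linear form of the deposited log2 values, which were read as counts brought to a common library size. Where each library is given, the order within a group is 1 to 4. The library sums were 10.3 to 10.9 M scaled reads in both groups, and the spacing of low values implied depths of 6.67 to 13.6 M reads for YT-ECKO and 7.47 to 16.8 M for WT. Wwtr1 lay at 348 to 2608 scaled reads for YT-ECKO, against 5650 to 8220 in WT, and Yap1 at 9.29 to 605 in YT-ECKO against 1409 to 2833 in WT. Their log2 differences were -2.45 ± 0.41 for Wwtr1 (SE; limma adjusted p = 0.0113) and -2.39 ± 0.52 for Yap1 (limma adjusted p = 0.175), and the labels do not say which exons are floxed. Summed over 10 endothelial markers, each YT-ECKO library held 94427 to 119273 scaled reads and each WT library 92769 to 107327. Markers of other cells overlapped between the groups: 10 neuronal markers summed to 17.6 to 1896 scaled reads per YT-ECKO library and 5.97 to 347 per WT library, 10 astrocyte markers to 792 to 1471 for YT-ECKO and 828 to 1717 for WT, and 10 mural markers to 156 to 1248 for YT-ECKO and 413 to 1821 for WT. The sums were 230 to 1283 in YT-ECKO and 1.99 to 622 in WT for 10 oligodendrocyte-lineage markers, and 1.51 to 330 in YT-ECKO and 161 to 1043 in WT for 10 microglial markers. For 8 fibroblast markers they were 271 to 1612 in YT-ECKO and 459 to 2349 in WT, and for 7 erythroid markers 13680 to 48601 in YT-ECKO and 13431 to 37707 in WT. Syt1, Dcx, Elavl4 and Nefl of neurons, Aldh1l1 and S100b of astrocytes, Olig1, Sox10, Mog and Mag of the oligodendrocyte lineage, P2ry12, C1qa, Tmem119, Itgam and Ptprc of microglia, and Lum of fibroblasts were listed at 0 in all 8 libraries. The part of such cells in the results below was not tested.

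Upstream sequences are shown for the members with an unadjusted limma p under 0.05 that have an entry in the promoter table, Plxnb1, Sema6b and Sema4c; values for all of them follow. Each runs over the 250 bases before a RefSeq transcription start on GRCm38.p6, 5' to 3' on the gene's strand, and Sema4c and Sema6b have 2 starts each. Capitals mark GGAATG, the core of the sequence that TEAD factors recognise, which was searched on both strands (CATTCC on the other).
Plxnb1 (chr9:109095186-109095435, plus strand): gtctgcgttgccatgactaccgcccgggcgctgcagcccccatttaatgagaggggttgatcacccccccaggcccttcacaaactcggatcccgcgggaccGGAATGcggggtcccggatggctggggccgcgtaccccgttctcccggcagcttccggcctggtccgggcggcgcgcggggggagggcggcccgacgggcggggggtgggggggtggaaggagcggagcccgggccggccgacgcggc
Sema6b, distal start (chr17:56140344-56140593, minus strand): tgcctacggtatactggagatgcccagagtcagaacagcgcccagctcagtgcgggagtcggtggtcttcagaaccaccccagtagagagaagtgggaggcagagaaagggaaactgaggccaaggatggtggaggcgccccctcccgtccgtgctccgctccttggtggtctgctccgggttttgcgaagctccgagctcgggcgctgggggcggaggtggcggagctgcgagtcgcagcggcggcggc
Sema6b, inner start (chr17:56133853-56134102, minus strand): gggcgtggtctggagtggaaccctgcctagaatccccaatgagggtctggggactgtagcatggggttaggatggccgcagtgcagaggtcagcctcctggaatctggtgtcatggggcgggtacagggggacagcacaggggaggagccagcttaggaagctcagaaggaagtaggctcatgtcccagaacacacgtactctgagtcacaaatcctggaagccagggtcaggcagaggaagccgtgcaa
Sema4c, distal start (chr1:36558382-36558631, minus strand): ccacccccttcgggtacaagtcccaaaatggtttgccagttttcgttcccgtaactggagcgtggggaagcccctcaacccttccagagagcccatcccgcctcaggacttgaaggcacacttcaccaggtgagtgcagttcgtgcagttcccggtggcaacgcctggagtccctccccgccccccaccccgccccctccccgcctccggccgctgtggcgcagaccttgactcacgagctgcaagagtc
Sema4c, inner start (chr1:36557558-36557807, minus strand): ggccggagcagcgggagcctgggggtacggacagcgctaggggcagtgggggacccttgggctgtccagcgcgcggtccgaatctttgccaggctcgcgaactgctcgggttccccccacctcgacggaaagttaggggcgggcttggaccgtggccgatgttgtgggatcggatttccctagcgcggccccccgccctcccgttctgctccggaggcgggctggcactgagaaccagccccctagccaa
Plxnb1 held 1 such hexamer, which began 148 bases before the start, and none was found in the 4 windows of Sema6b and Sema4c. The hexamer lay in 12.6% of 32851 upstream windows in the table and in 7 of the 70 windows (10%) that belong to 54 matched members. Counted per gene, as a match in any of its windows, 4 of 16 tested members with a window held it: Epha2, Ntn3, Plxnb1 and Plxnd1. This count per gene cannot be set against the shares of windows. These are matches of letters only, and binding was not measured.

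Brain endothelium listed a small set of guidance genes in every library. Of the 64 members, 41 (64.1%) were above 0 in at least 1 library, 10 (15.6%) were above 0 in all 8, and 23 were listed at 0 throughout. Over all symbols of the series, 53.0% were above 0 in at least 1 library and 19.9% in all 8. The 10 members present in every library were Unc5b, Sema4c, Sema6d, Plxnd1, Sema7a, Robo4, Efna1, Sema6a, Plxna2 and Epha2. Eph receptors were the family with the lowest share detected, with 6 of 13 members above 0 in any library, against 6 of 7 ephrins, 8 of 10 plexins, 12 of 19 semaphorins, 5 of 8 netrins and Unc5 receptors, and 4 of 7 Slits and Robos. The members at 0 in all libraries include Sema3e, the ligand of plexin-D1, Sema4d, the ligand of plexin-B1, and Sema3a, a ligand of neuropilin-1.

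**Figure D1:**
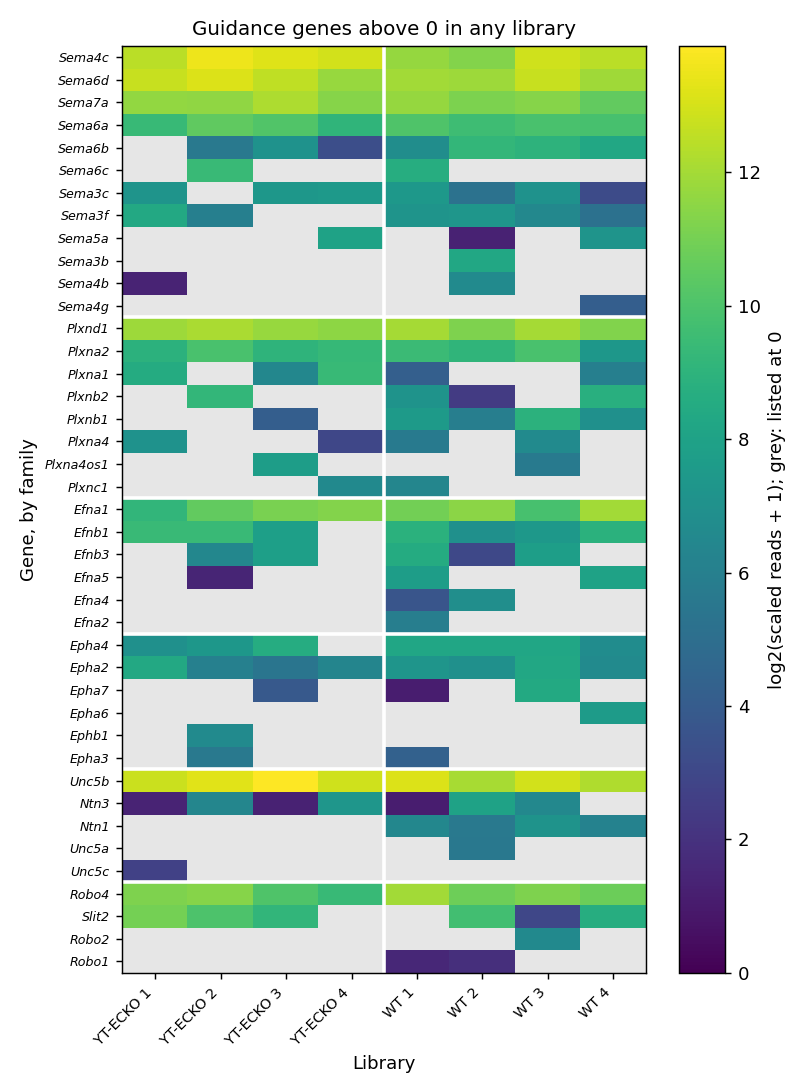
Heat map of the 41 members above 0 in at least 1 library, by family, with YT-ECKO libraries left of WT libraries; colour gives log2(scaled reads + 1) and grey marks a value listed at 0. Sema4c, Sema6d, Sema7a, Plxnd1, Unc5b, Robo4 and Efna1 are filled across all 8 columns, and between 17 and 22 members are coloured per YT-ECKO library against 24 to 30 per WT library.

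Fewer members were above 0 in each YT-ECKO library than in each WT library. The number was 20, 22, 21 and 17 in the YT-ECKO libraries, against 30, 27, 24 and 24 in the WT libraries. Of all symbols, 7538 to 8762 were above 0 per YT-ECKO library and 8621 to 9720 per WT library, and only WT 4 (8621) lay within the YT-ECKO range. The table of WT 4 is also the one WT table written in the form of the YT-ECKO tables, with dates in place of some symbols. The part of that difference in the results was not tested. Without WT 4 the log2 differences were 1.04 for Sema4c, 1.27 for Plxna1, -1.51 for Sema6b, -1.33 for Plxnb1 and -0.75 for Ntn1. Leaving out WT 4 makes table form and group coincide, so these values cannot speak to the part of that difference. The members made up 0.202% to 0.265% of the symbols above 0 in YT-ECKO and 0.247% to 0.309% in WT. Ephb1 and Unc5c, 2 members (4.88% of those detected), were above 0 in YT-ECKO libraries only, against 6.92% of all detected symbols. Efna2, Efna4, Epha6, Ntn1, Robo1, Robo2, Sema3b, Sema4g and Unc5a, 9 members (22.0%), were above 0 in WT libraries only, against 11.7% of all detected symbols. Of these 9, 6 rested on 1 WT library and 2 on 2 WT libraries, and Ntn1 alone was present in all 4. With a floor of 10 scaled reads the numbers were 1 member (2.56%) in YT-ECKO only, against 6.57% of all symbols, and 10 members (25.6%) in WT only, against 12.6% of all symbols. The value of 1 read differed between libraries, from 0.767 to 1.55 scaled reads over YT-ECKO and from 0.612 to 1.44 over WT. It was below 1 scaled read in YT-ECKO 2 and 3 and in WT 1, 3 and 4. The log2 of 1 read would lie below 0 there, and no such value was listed. A listed 0 can thus stand for 0 or 1 read in these libraries, and does not stand for the same floor everywhere. A lower value can come from fewer cells of a type or from less RNA per cell, which bulk libraries cannot tell apart.

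In the comparison over all genes, 21 members reached 10 scaled reads in at least 4 libraries and were tested with limma on log2(scaled reads + 128) among 8706 genes. None passed a Benjamini-Hochberg adjusted p of 0.05 over all genes (adjusted p 0.724 to 0.998), a threshold that 0.0345% of all tested genes passed. At an unadjusted limma p under 0.05 there were 5 of the 21 members (23.8%), against 5.47% of all tested genes. These shares were not tested against each other. The testing of Ntn1 and Plxnb1 rested largely on their WT values, as given below. Sema4c and Plxna1 had higher values in YT-ECKO (a direction and threshold met by 1.78% of all genes), and Plxnb1, Sema6b and Ntn1 had lower ones (3.69% of all genes). Voom on rebuilt reads also called no member and put 4 of them under an unadjusted p of 0.05, as it did 6.01% of all tested genes. The log2 difference was above 0 for 10 of the 21 members and below 0 for 11, with a median of -0.07, and the median over all 8706 genes was -0.09. Differences on this scale understate those of genes with few reads.

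**Figure D2:**
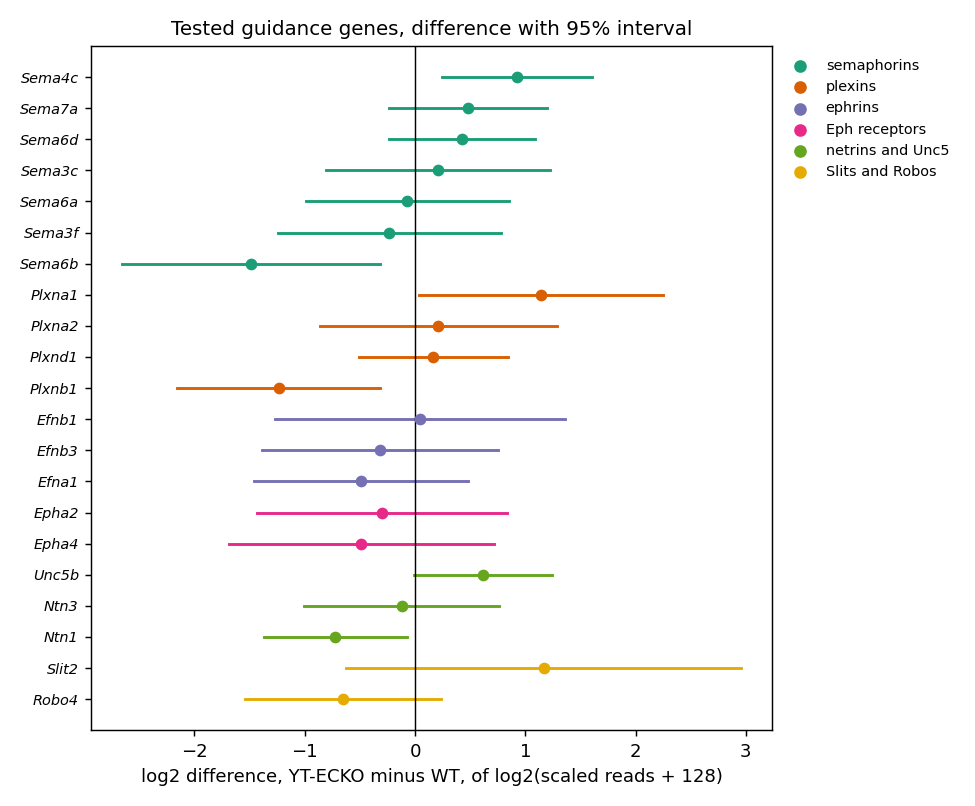
Log2 difference (YT-ECKO minus WT, on log2(scaled reads + 128)) of the 21 tested members with its 95% limma interval, coloured by family. Intervals of Sema4c and Plxna1 lie above 0, those of Plxnb1, Sema6b and Ntn1 lie below 0, and the other 16 cross it.

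Among the semaphorin ligands, Sema4c had the smallest unadjusted p of all members. Sema4c (GRCm38 chromosome 1, 36548639 to 36558349) encodes a transmembrane ligand of plexin-B2. It stood at 5545, 12119, 9508 and 7979 scaled reads in the YT-ECKO libraries, against 3345, 2601, 7502 and 5650 in the WT libraries. YT-ECKO 2, 3 and 4 lay above every WT library, and YT-ECKO 1 lay among the WT values. The mean was 8788 ± 2756 scaled reads in YT-ECKO and 4775 ± 2234 in WT (SD, n = 4 each), 1.84 times as high, and the log2 difference was 0.92 ± 0.33 (SE; 95% interval 0.24 to 1.61, limma adjusted p = 0.724). With 1 library left out, the difference lay between 0.68 and 1.18, and its unadjusted limma p stayed under 0.05 in 7 of 8 fits, the exception being the fit without WT 2. Exons of D430040D24Rik overlap those of Sema4c on the other strand, and since no source used here gives the counting strand, reads of the pair cannot be told apart.

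Sema6b (GRCm38 chromosome 17, 56123085 to 56140343) encodes a transmembrane semaphorin that binds plexin-A4. Its values were 0, 47.9, 135 and 9.21 scaled reads in the YT-ECKO libraries, against 113, 590, 514 and 320 in the WT libraries. The groups touched only through YT-ECKO 3, which lay above WT 1. The mean was 48.0 ± 61.6 scaled reads in YT-ECKO and 384 ± 214 in WT (SD, n = 4 each), and the log2 difference was -1.48 ± 0.57 (SE; 95% interval -2.65 to -0.32, limma adjusted p = 0.776). Leaving out single libraries moved the difference between -1.81 and -1.28, with an unadjusted limma p under 0.05 in 8 of 8 fits, and voom did not put Sema6b under 0.05.

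Sema6d, a transmembrane ligand of plexin-A1, and Sema7a, a membrane-anchored ligand of plexin-C1 and of beta1 integrins, were well above 0 in all libraries. Sema6d stood at 6719, 9166, 6034 and 3514 scaled reads in the YT-ECKO libraries, against 4006, 3759, 6794 and 3816 in the WT libraries. Its YT-ECKO values spanned the whole WT range on both sides, and the log2 difference was 0.43 ± 0.32 (SE; 95% interval -0.24 to 1.09). Sema7a stood at 3148, 3059, 4715 and 2618 scaled reads in the YT-ECKO libraries, against 3288, 2257, 2652 and 1489 in the WT libraries. YT-ECKO 3 lay above all WT libraries, and WT 2 and 4 lay below all YT-ECKO libraries, with a log2 difference of 0.48 ± 0.35 (SE; 95% interval -0.24 to 1.20). Both intervals include 0 and reach further above it than below.

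Sema6a, a ligand of plexin-A2 and plexin-A4, stood at 657, 1468, 1107 and 538 scaled reads in the YT-ECKO libraries, against 1070, 775, 969 and 924 in the WT libraries. The YT-ECKO libraries (SD 428) spread to both sides of the WT libraries (SD 123), with a log2 difference of -0.07 ± 0.45 (SE). The secreted ligands Sema3c and Sema3f, which act through neuropilins, were the remaining tested semaphorins, outside the rule for named genes. Sema3c ran from 0 to 180 scaled reads over YT-ECKO and from 7.96 to 171 over WT, and Sema3f from 0 to 332 in YT-ECKO and from 34.8 to 159 in WT. Their log2 differences were 0.21 ± 0.49 and -0.23 ± 0.49 (SE). Sema6c was above 0 in YT-ECKO 2 (692) and WT 1 (406) only, and Sema3b in WT 2 only (317). Sema5a, a transmembrane ligand of plexin-A1, stood at 261 in YT-ECKO 4 and at 148 in WT 4, and Sema4b at 1.61 in YT-ECKO 1 and 98.4 in WT 2. Sema4g was above 0 in WT 4 only (16.9), and Sema3a, Sema3d, Sema3e, Sema4a, Sema4d, Sema4f and Sema5b were at 0 in all libraries.

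Plexins, the semaphorin receptors, were led by Plxnd1. This receptor of Sema3E stood at 3666, 4492, 3425 and 2923 scaled reads in the YT-ECKO libraries, against 4124, 2405, 4214 and 2451 in the WT libraries. Every YT-ECKO value but the highest lay within the WT range, and the log2 difference of 0.16 ± 0.33 (SE) had a 95% interval of -0.51 to 0.84. Plxna2, a receptor of class 6 semaphorins, stood at 485, 961, 517 and 636 scaled reads in the YT-ECKO libraries, against 706, 553, 976 and 165 in the WT libraries. These also overlapped throughout (log2 difference 0.21 ± 0.52, SE), and without WT 4 the difference was -0.18.

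Plxnb1 (GRCm38 chromosome 9, 109095389 to 109119917), the receptor of Sema4D, was 1 of the 2 members (9.52% of those tested) without overlap between the groups. Of all tested genes, 3.40% had none (2.07% with lower values in YT-ECKO). YT-ECKO 1, 2 and 4 had Plxnb1 at a listed 0 and YT-ECKO 3 had 16.9 scaled reads. The WT libraries had 192, 60.3, 478 and 127. With YT-ECKO 1, 2 and 4 at 0, Plxnb1 could be tested only if at least 3 WT libraries reached 10 scaled reads. The filter therefore favoured lower values in YT-ECKO, so the direction and lack of overlap of Plxnb1 are not independent of it. The log2 difference was -1.23 ± 0.45 (SE; 95% interval -2.15 to -0.31, limma adjusted p = 0.736). With 1 library left out it lay between -1.48 and -0.91, and its unadjusted limma p stayed under 0.05 in 8 of 8 fits. The predicted gene Gm7628 overlaps its exons on the other strand. Of the upstream windows printed above, only that of Plxnb1 holds the TEAD hexamer. The tested members Epha2, Ntn3 and Plxnd1, whose groups overlapped, hold it as well, and binding was not measured.

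Plxna1, a receptor of Sema6D and, with neuropilin-1, of class 3 semaphorins, had higher values in YT-ECKO. It stood at 372, 0, 85.2 and 665 scaled reads in the YT-ECKO libraries, against 17.8, 0, 0 and 63.6 in the WT libraries. YT-ECKO 1, 3 and 4 were above all WT libraries, and YT-ECKO 2 had a listed 0. The log2 difference was 1.14 ± 0.54 (SE; limma adjusted p = 0.897). It lay between 0.71 and 1.59 with single libraries left out, with an unadjusted limma p under 0.05 in 3 of 8 fits. Neither voom (unadjusted p = 0.169) nor limma with a pseudocount of 16 (unadjusted p = 0.0858) put Plxna1 under 0.05. Gm26811 overlaps exons of Plxna1 on the other strand. The receptor of Sema4C, Plxnb2, was not tested: it had 582 scaled reads in YT-ECKO 2 and a listed 0 in the other YT-ECKO libraries, against 142, 4.35, 0 and 436 in the WT libraries. Plxnc1 was above 0 in YT-ECKO 4 (96.3) and WT 1 (82.0), and Plxna3 and Plxnb3 were at 0 in all libraries. Plxna4 was above 0 in YT-ECKO 1 and 4 and in WT 1 and 3, and Plxna4os1 in YT-ECKO 3 (209) and WT 3 (52.9).

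**Figure D3:**
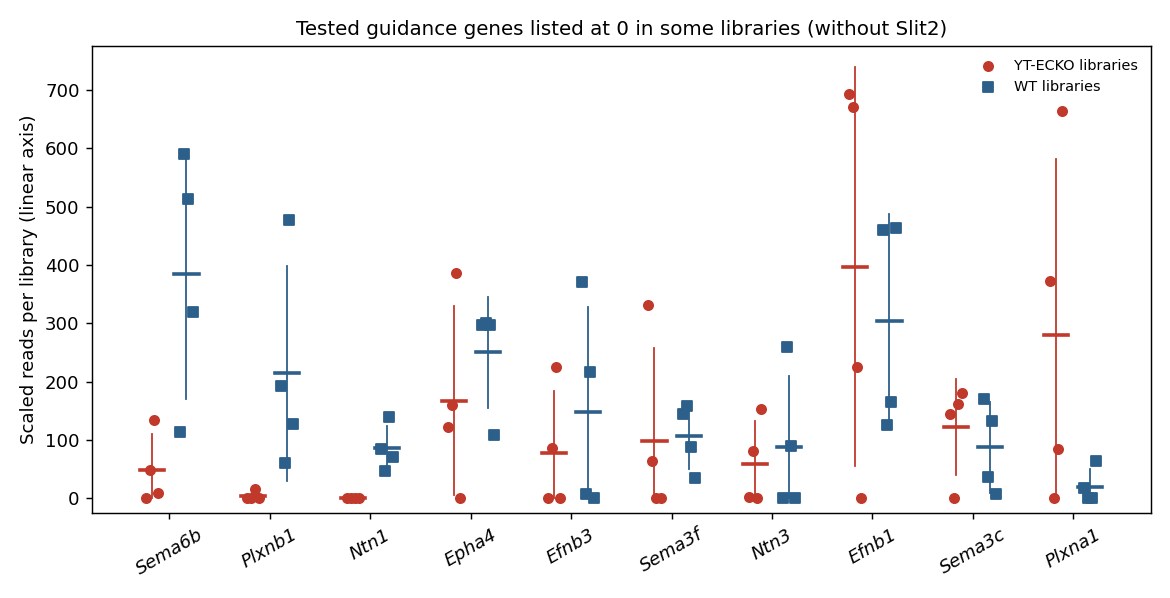
Scaled reads on a linear axis for 10 of the 11 tested members listed at 0 in some library (Slit2, whose values reach 2049, is left to the text); circles are YT-ECKO libraries, squares WT libraries, bars the means and lines 1 SD, drawn no lower than 0. Plxnb1 and Ntn1 show no overlap, with every YT-ECKO point at or below 16.9, while Efnb1, Sema3c and Epha4 have YT-ECKO points both at 0 and above the WT means.

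Netrin-1, the ligand of Unc5 receptors, Dcc and neogenin, was the other member whose groups did not overlap. Ntn1 (GRCm38 chromosome 11, 68209364 to 68400823) was listed at 0 in all 4 YT-ECKO libraries and stood at 84.8, 47.3, 139 and 71.6 scaled reads in the WT libraries. A gene at 0 in all 4 YT-ECKO libraries was tested only if all 4 WT libraries reached 10 scaled reads. Once YT-ECKO was at 0, the filter therefore fixed the lack of overlap of Ntn1 and its direction. The unadjusted p of Ntn1 in the comparison over all genes was calculated under the same selection. The fitted log2 difference of -0.72 ± 0.31 (SE; limma adjusted p = 0.873) depends on the pseudocount and is not a fold change. It was -0.22 with a pseudocount of 512 and -6.33 with a pseudocount of 1. Its unadjusted limma p was under 0.05 in 3 of 8 fits with 1 library left out, those without WT 1, 2 and 4. With a WT library left out, Ntn1 no longer reached 10 scaled reads in 4 libraries. These fits kept Ntn1 only because the filter over all 8 libraries was used again.

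Its receptor Unc5b (GRCm38 chromosome 10, 60762593 to 60831581), known from tip cells of sprouting vessels, had the highest mean scaled reads of all members. Unc5b stood at 7161, 9789, 15266 and 7681 scaled reads in the YT-ECKO libraries, against 9102, 4294, 7755 and 4758 in the WT libraries. Only YT-ECKO 2 and 3 lay above all WT libraries. The mean was 9974 ± 3706 in YT-ECKO and 6477 ± 2327 in WT (SD, n = 4 each), and the log2 difference of 0.62 ± 0.30 (SE) had a 95% interval of -0.01 to 1.24 and a limma adjusted p = 0.928. It was 0.39 without YT-ECKO 3 and 0.80 without WT 1. The unadjusted p of Unc5b was 0.0532 with limma and 0.0465 with voom. Ntn3 ran from 1.51 to 154 scaled reads over YT-ECKO and from 0 to 259 over WT (log2 difference -0.12 ± 0.43, SE), and its exons overlap those of BC028777 and Tbc1d24. Unc5a was above 0 in 1 WT library (45.9) and Unc5c in 1 YT-ECKO library (5.45), and Unc5d, Ntn4 and Ntn5 were at 0 in all libraries.

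Robo4 and Slit2 were the tested members of the Slit and Robo families. Robo4, the endothelial Robo receptor, which can bind Unc5b, stood at 2404, 2669, 1062 and 653 scaled reads in the YT-ECKO libraries, against 4068, 1843, 2414 and 1774 in the WT libraries. YT-ECKO 3 and 4 lay below all WT libraries and YT-ECKO 1 and 2 within their range. The log2 difference was -0.65 ± 0.43 (SE; 95% interval -1.54 to 0.24). Slit2, a secreted ligand of Robo1 and Robo2, stood at 2049, 1018, 565 and 0 scaled reads in the YT-ECKO libraries, against 0, 825, 6.92 and 402 in the WT libraries. Both groups held a library at 0, YT-ECKO 1 and 2 lay above all WT libraries, and the log2 difference of 1.17 ± 0.84 (SE) was 0.61 without YT-ECKO 1 and 1.97 without YT-ECKO 4. The Slit receptors Robo1 and Robo2 reached 2.66 and 96.5 scaled reads at most, both in WT libraries, and Robo3, Slit1 and Slit3 were at 0 in all libraries.

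**Figure D4:**
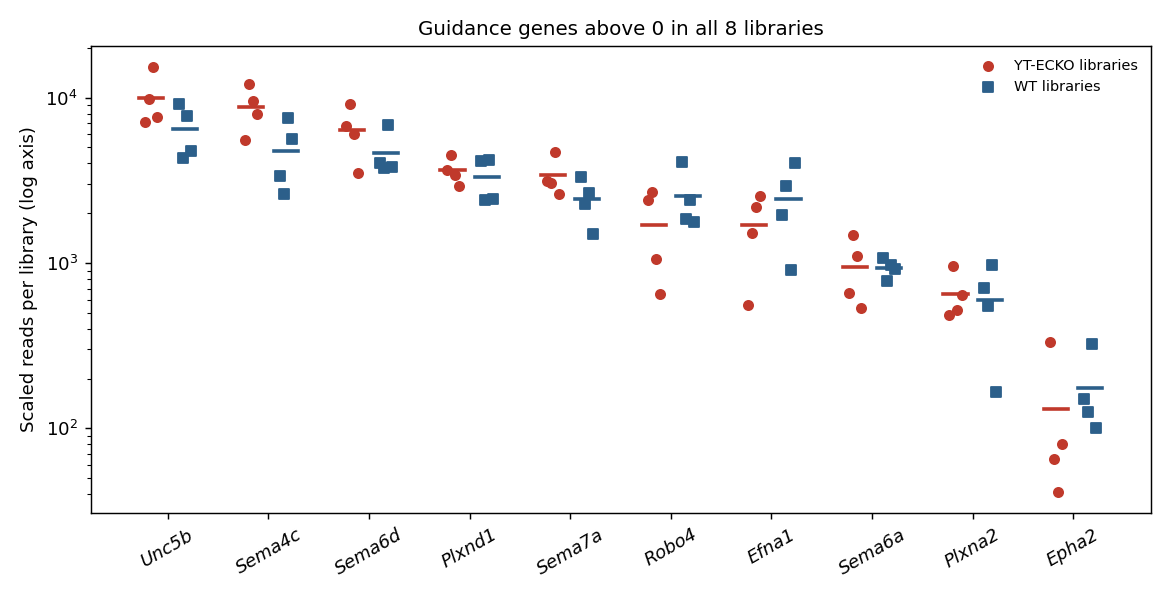
Scaled reads on a log axis for the 10 members above 0 in all 8 libraries; circles are YT-ECKO libraries, squares WT libraries and bars the means. The groups overlap for every gene drawn, and Sema4c and Unc5b show the highest YT-ECKO values (12119 and 15266).

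Ephrins and Eph receptors gave no member at an unadjusted limma p under 0.05. Efna1, which encodes the membrane-anchored ligand ephrin-A1, stood at 560, 1513, 2184 and 2530 scaled reads in the YT-ECKO libraries, against 1944, 2900, 913 and 4020 in the WT libraries. The lowest value was in YT-ECKO 1 and the highest in WT 4, with wide overlap (log2 difference -0.49 ± 0.47, SE). Efnb1, a transmembrane ephrin, stood at 693, 671, 226 and 0 scaled reads in the YT-ECKO libraries, against 461, 126, 166 and 464 in the WT libraries, and Efnb3 ran from 0 to 226 in YT-ECKO and from 0 to 371 in WT. Their log2 differences were 0.05 ± 0.64 and -0.31 ± 0.52 (SE), and the sign of each turned under some settings given below. Among the ephrins that were not tested, Efna5 reached 1.76 scaled reads in YT-ECKO and 257 in WT, Efna4 was above 0 in WT 1 and 2 only (at most 117) and Efna2 in WT 1 only (61.7). Efna3 was at 0 in all libraries.

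Epha2, the main receptor of ephrin-A1, stood at 334, 65.6, 41.4 and 80.4 scaled reads in the YT-ECKO libraries, against 150, 125, 324 and 100 in the WT libraries. YT-ECKO 2, 3 and 4 lay below all WT libraries and YT-ECKO 1 above them (log2 difference -0.30 ± 0.55, SE). Epha4, which binds ephrins of both classes, stood at 123, 160, 387 and 0 scaled reads in the YT-ECKO libraries, against 297, 301, 297 and 108 in the WT libraries (log2 difference -0.49 ± 0.58, SE). The other Eph receptors were rarely above 0. Epha7 reached 13.8 scaled reads in YT-ECKO 3 and 345 in WT 3, Epha3 48.9 in YT-ECKO 2 and 19.2 in WT 1, Epha6 was above 0 in WT 4 only (200), Ephb1 in YT-ECKO 2 only (97.7), and Epha1, Epha5, Epha8, Epha10, Ephb2, Ephb3 and Ephb6 were at 0 in all libraries.

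Levels of different genes depend on which part of a transcript the reads cover. Kits named Quant-Seq are known for counting 3' ends, where division by length would favour short genes, and the labels say no more of the coverage, so the levels are given on both scales and no order is drawn from either. Per kilobase of merged exons, the mean level in YT-ECKO was 1913 scaled reads for Sema4c, 1594 for Unc5b, 1026 for Sema7a, 927 for Efna1, 602 for Sema6d, 497 for Plxnd1 and 320 for Robo4. In WT the level per kilobase was 1040 for Sema4c, 1035 for Unc5b, 734 for Sema7a, 1336 for Efna1, 435 for Sema6d, 452 for Plxnd1 and 476 for Robo4. Efna1, which has short exons, shows why: in WT it stood above Unc5b and Sema4c per kilobase, but below both undivided, with a mean of 2444 scaled reads. In YT-ECKO it lay below both on either scale, with an undivided mean of 1697 scaled reads. For the other members above 0 in every library, the levels per kilobase were 107 in YT-ECKO and 106.5 in WT for Sema6a. They were 37.8 in YT-ECKO and 34.9 in WT for Plxna2, and 27.9 in YT-ECKO and 37.4 in WT for Epha2.

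Some members varied between 0 and high values among libraries of a single group. Of the tested members that reached 100 scaled reads in some YT-ECKO library, 8 of 19 (42.1%) were at 0 in another, against 36.2% of all tested genes, and in WT 3 of 20 (15.0%) were, against 21.6% of all tested genes. The 8 were Efnb1, Efnb3, Epha4, Plxna1, Sema3c, Sema3f, Sema6b and Slit2.

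Co-receptors and intracellular partners, a list of 52 genes that are no members, had 38 tested. None passed over all genes with limma, and 3 (7.89%) had an unadjusted limma p under 0.05, a share near the 5.47% of all tested genes. Voom called 0 of them, with 2 of 38 at an unadjusted p under 0.05, against 6.01% of all tested genes. Values were higher in YT-ECKO for 19 and lower for 19, with a median log2 difference of -0.01 beside the -0.09 over all tested genes. Enah, which encodes the actin regulator Mena, stood at 1681, 1706, 2482 and 2532 scaled reads in the YT-ECKO libraries, against 334, 550, 1085 and 3.98 in the WT libraries. Its groups did not overlap, with higher values in YT-ECKO as for 1.33% of all tested genes, and the log2 difference was 2.21 ± 0.54 (SE; limma adjusted p = 0.252). Ablim1, an actin-binding LIM protein gene, stood at 12722, 15565, 14787 and 12348 scaled reads in the YT-ECKO libraries, against 22899, 18306, 21769 and 23315 in the WT libraries, again without overlap (log2 difference -0.63 ± 0.22, SE; limma adjusted p = 0.675). Dpysl3, of the collapsin response mediators of semaphorin signals, was the third, at 0, 1139, 216 and 276 scaled reads in the YT-ECKO libraries, against 94.5, 30.1, 0 and 0 in the WT libraries (log2 difference 1.32 ± 0.60, SE; limma adjusted p = 0.882).

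The neuropilins and netrin co-receptors overlapped between the groups. Nrp1 averaged 4692 ± 1759 scaled reads in YT-ECKO and 4007 ± 859 in WT, and Nrp2 averaged 6112 ± 2281 in YT-ECKO and 8748 ± 2907 in WT (SD, n = 4 each). Neo1, which encodes neogenin, stood at 6.21, 965, 2384 and 1390 scaled reads in the YT-ECKO libraries, against 1401, 940, 2042 and 2088 in the WT libraries. Dcc reached 1.80 scaled reads at most, in YT-ECKO 2.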

How the data were processed

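RNA of 8 libraries was measured, each from 500 ng of total RNA with a Lexogen Quant-Seq kit per the labels' protocols. For each library the authors deposited a table of symbols with their log2 values; the unit was settled from the values, since none lay below 0 and 88.8% to 100% of linear values under 12 lay within 0.1 of a whole multiple of a step for each library. Bowtie2, edgeR and mm10 are named in the submitters' processing notes, without versions; not given in the sources used here were the counter, the annotation, the strand and the scaling. Of 24421 symbols, 27 were not shared because 5 tables (WT 4 and YT-ECKO 1 to 4) hold dates, which left 24394. Log2 values of 0 were read as 0 scaled reads. Rn45s made up 8.39% to 14.8% of a library.

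Genes that reached 10 scaled reads in 4 or more libraries were tested, 8706 in all. The test was limma 3.58.1 (R 4.3.3) on log2(scaled reads + 128), without covariates and with a trended, robust prior, tested on simulated data; p-values were adjusted by Benjamini-Hochberg over all 8706 genes at 0.05. The depth implied per library, 6.67 to 16.8 M reads, limits the precision of low values. Places and exon lengths came from GENCODE M21 (GRCm38), which held all 64 members, and upstream sequences from RefSeq (GRCm38.p6), which matched 54. The members, lists, pseudocount and tests were chosen with earlier results of these data known. Named in full were up to 5 tested members per family with the highest mean, plus every tested member without overlap or with an unadjusted p under 0.05; values of the remaining 2 tested members are given by range. Alternatives covered pseudocounts, filters, scaling, voom on rebuilt reads, a replicate block and each library left out.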

Additional observations from a re-analysis of the deposited data

Results flagged for a closer look

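Among the 19 named members, each group of 4 libraries was checked for 1 library far from the other 3. Ntn1 in YT-ECKO, at 0 throughout, could not be checked. Of the groups checked, 4 stood apart. For normally distributed values the rule flags about 1 in 20, a rate not established for linear values with many zeros. Epha2 was at 334 scaled reads in YT-ECKO 1, against 41.4 to 80.4 in the other YT-ECKO libraries. Plxnb1 was at 16.9 in YT-ECKO 3 and listed at 0 in the other 3, a pattern that the rule flags whatever the single value above 0. Epha4 was at 108 in WT 4, against 297 to 301 in the other WT libraries. Sema6d was at 6794 in WT 3, against 3759 to 4006 in the other WT libraries.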

How the results depend on the processing

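The number of members called stayed at 0 in all 17 alternatives, while 2 to 6 members had an unadjusted limma p under 0.05 (3 to 6 with 1 library left out); the lowest adjusted p of a named member was 0.475. Of 318 refitted differences of the 19 named members 302 kept their sign, and 14 members kept it in every alternative run. A filter of 100 scaled reads left 15 members tested, and no filter 41. Plxnb1, Plxna1 and Ntn1 were among those not tested with the filter of 100. The count of 2 members under an unadjusted p of 0.05 came from that filter. Over all genes 3 passed, against 0 without a filter, 0 with voom, 5 with the replicate block, 0 to 7 with 1 library left out, and 0 with a pseudocount of 1, an alternative chosen after seeing the data; the causes were not tested. The sign turned for Efnb1 with pseudocounts of 16 and 1 (-0.41 and -1.36), with voom (-1.65) and with single libraries left out (-0.28 to 0.61), and for Ntn3 with a pseudocount of 1 (0.18) and single libraries left out (-0.34 to 0.21). Sema6a turned with voom (0.015) and single libraries left out (-0.29 to 0.13), Efnb3 without WT 1 (-0.62 to 0.050 over single libraries) and Plxna2 without WT 4 (-0.18 to 0.46 over single libraries). For members with few reads the size depends on the pseudocount: with 16 in place of 128 the log2 difference was -2.95 for Sema6b, -3.26 for Plxnb1 and 2.32 for Plxna1, where -1.48, -1.23 and 1.14 are reported. Same-numbered libraries deviated from their group means with correlations of -0.03, -0.04, 0.07 and 0.08, and 1 of 4 YT-ECKO libraries correlated best with its own number. With so few pairs, these correlations cannot settle whether same-numbered libraries were handled together. The replicate block called no member. Depth sets the value of 1 read, 0.612 to 1.55 scaled reads, and so limits values of a few scaled reads; members far above that were also listed at 0 in another library of their group (Slit2 at 2049 and 0 in YT-ECKO), for which the cause was not tested.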
